A study of Mus musculus with 4 samples.

Results

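Genes of the angiotensin pathway were followed across 4 arrays of whole mouse kidney. These 9 genes are Agt, Atp6ap2, Ace, Mme, Thop1, Prcp, Enpep, Anpep and Lnpep, and every probe set that the platform annotation gives to one of these 9 genes alone was taken. With 14 probe sets between them, 8 were measured, of 12394 named genes on the array, and all 8 passed the filter on low values, a mean log2 value of at least 6.27. Lnpep, the insulin-regulated aminopeptidase, was given no probe set by that annotation and was not analysed here. Each value below is a log2 probe set value, and a difference of 1 is a 2-fold difference.

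Angiotensinogen, the product of Agt, is cut by renin to angiotensin I, and angiotensin-converting enzyme, the product of Ace, trims this to angiotensin II, which constricts vessels, retains salt and promotes scarring. Other peptidases compete for the same peptides. Neprilysin (Mme) and thimet oligopeptidase (Thop1) cut angiotensin I to a shorter peptide that opposes angiotensin II, and prolylcarboxypeptidase (Prcp) takes the last residue from angiotensin II. Aminopeptidase A (Enpep) and aminopeptidase N (Anpep) shorten angiotensin II stepwise from its other end, and the prorenin receptor (Atp6ap2) binds prorenin and is also an accessory protein of the vacuolar proton pump. In the kidney many of these enzymes sit on the brush border of the proximal tubule, and neprilysin is also found on podocytes. Captopril occupies the active site of angiotensin-converting enzyme. It acts on the protein, and the arrays measured RNA only.

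All animals were C57BL/6, labelled as male and as 17 weeks of age, and each group held 6 mice. Saline+Water mice received intraperitoneal 0.15 M NaCl and drank water, and Saline+Captopril mice received the same injections with captopril at 100 mg/kg/day in the drinking water. GN+Water mice received 10 mg of horse spleen apoferritin on 5 days a week and 100 µg of lipopolysaccharide 3 times a week, which induces glomerulonephritis (GN), an inflammation of the filtering units. GN+Captopril mice received these injections and captopril. Injections began at about 8 weeks of age and lasted 6 weeks, and kidneys were taken after 9 weeks. There was 1 array per group, so no value has an error or a test. The labels do not say whether an array held RNA of 1 mouse or of a pool. The study asked whether inhibition of the converting enzyme lessens interstitial injury in this model. In RNA of a whole organ, fewer cells of a type and less RNA per cell cannot be told apart.

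Both water arrays stood apart: Saline+Water in spike-in controls and in its correlation with the others, the array labelled GN+Water in sex-linked transcripts. On Saline+Water the median of 18 spike-in control probe sets was 10.8, against 7.46 to 7.89 on the other arrays, and its correlation with them over all probe sets was 0.945 to 0.966, against 0.982 to 0.994 among the other 3. The array labelled GN+Water carried Xist, which coats the silenced X of female cells, at 8.97 against 5.02 to 5.21 elsewhere, and the Y-linked Eif2s3y at 3.43 against 8.02 to 8.29. Both female-biased kidney transcripts listed, Slc7a12 and Akr1c18, were higher there than on Saline+Water, by 5.30 and 2.34. These go against its male label, so it is called the array labelled GN+Water. Kidney identity was clear on every array: all 15 proximal tubule markers passed the filter, with a median level between 11.8 and 12.5.

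The sequences before the transcription starts of 3 genes are shown because the results turn on them: the gene of the drug's target, the gene with the widest differences and the prorenin receptor gene. Each is the run of 250 bases before a start, from RefSeq on GRCm38.p6, 5′ to 3′ on the plus strand. Ace is at chr11:105967698-105967947, the first of 2 starts listed. Mme is at chr3:63294961-63295210, the first of 3 starts listed, and Atp6ap2 at chrX:12587509-12587758. Capitals mark any match, on either strand, to TATAAA (the TATA box), GGGCGG (the GC box), CCAAT (the CCAAT box) or AGAACA (a core of the androgen response element, called the androgen motif here).
Ace: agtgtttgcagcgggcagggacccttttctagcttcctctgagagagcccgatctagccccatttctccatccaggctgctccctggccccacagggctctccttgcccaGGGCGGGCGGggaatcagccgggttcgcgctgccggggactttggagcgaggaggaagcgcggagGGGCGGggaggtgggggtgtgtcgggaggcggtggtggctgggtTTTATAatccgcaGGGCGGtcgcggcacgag
Mme: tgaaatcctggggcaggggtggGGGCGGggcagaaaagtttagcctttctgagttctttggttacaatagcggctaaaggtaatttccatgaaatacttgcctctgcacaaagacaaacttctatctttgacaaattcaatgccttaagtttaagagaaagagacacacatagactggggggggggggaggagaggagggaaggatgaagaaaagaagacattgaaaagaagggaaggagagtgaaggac
Atp6ap2: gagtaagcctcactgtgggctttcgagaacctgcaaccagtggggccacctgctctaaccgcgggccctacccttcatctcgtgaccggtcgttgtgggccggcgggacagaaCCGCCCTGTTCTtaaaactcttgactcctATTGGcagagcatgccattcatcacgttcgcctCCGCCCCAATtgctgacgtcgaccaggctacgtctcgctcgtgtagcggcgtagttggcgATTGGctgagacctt

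The Ace run held 4 GC boxes, of which 2 overlap, and 1 TATAAA match on the other strand, and 67.2% of its bases were G or C. The Mme run held 1 GC box and was 45.6% G or C, the lowest of the 12 runs listed for the 9 genes, which reached 73.6% at the third Mme start. In the Atp6ap2 run there were 2 GC boxes, 3 CCAAT matches and 1 androgen motif. An adjoining GC box and androgen motif share no base there, whereas the second GC box overlaps a CCAAT match. Over the 12 runs of all 9 genes, 9 held a GC box, 6 a CCAAT, 3 a TATAAA and 1 an androgen motif. Among 32851 such runs in the mouse table the shares were 32.7%, 33.8%, 12.4% and 16.1%. These matches are descriptions of the letters, and the arrays do not tell which start a transcript used.

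Agt, the precursor of all angiotensins, had 1 probe set, at 9.51 for Saline+Water, 9.25 for Saline+Captopril, 9.40 for the array labelled GN+Water and 9.07 for GN+Captopril. It was highest on Saline+Water and lowest on GN+Captopril, and the 4 arrays spanned little. The array labelled GN+Water was 1.08-fold below Saline+Water and 1.10-fold above Saline+Captopril, so the direction of this small difference turned with the baseline. In both pairs the captopril array was the lower one, 1.20-fold among saline mice and 1.26-fold among GN mice.

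Atp6ap2, the prorenin receptor gene, had 3 probe sets. The one with the highest mean, 1437688_x_at, was at 10.6 for Saline+Water, 11.7 for Saline+Captopril, 11.8 for the array labelled GN+Water and 11.6 for GN+Captopril. Another, 1439456_x_at, stood at 10.2, 11.2, 11.4 and 11.2 in the same order, and 1423662_at at 10.3, 10.9, 11.2 and 10.9. Saline+Water was the low array in each case, 0.65 to 1.07 below the lowest of the others, while the other 3 arrays lay within 0.20 to 0.31 of each other. Relative to Saline+Water, the array labelled GN+Water was 2.41-fold, 2.34-fold and 1.94-fold higher by the 3 probe sets. The smallest fold is that of 1423662_at. The suffix of the others marks probes that may also bind unrelated transcripts.

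Ace encodes captopril's target and had 2 probe sets. By 1427034_at it was at 9.48 for Saline+Water, 8.79 for Saline+Captopril, 8.30 for the array labelled GN+Water and 8.82 for GN+Captopril. By 1451911_a_at it was at 9.92, 8.67, 8.01 and 8.52. Both probe sets were highest on Saline+Water and lowest on the array labelled GN+Water, with the 2 captopril arrays between them and close to each other. On those captopril arrays the GN difference was 1.02-fold higher by the first probe set, though not after quantile normalisation, and 1.11-fold lower by the second. Captopril against water was 1.62-fold and 2.38-fold lower in saline mice, and 1.43-fold and 1.43-fold higher in GN mice. Thus the second probe set widened every difference that involves Saline+Water and left the one between the GN arrays as it was. Without Saline+Water, the range of Ace over 3 arrays was 0.52 by the first probe set and 0.66 by the second.

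Mme, the neprilysin gene and an alternative peptidase for angiotensin I, had 2 probe sets with unlike courses over the arrays. By 1455961_at it was at 7.35 for Saline+Water, 9.15 for Saline+Captopril, 9.85 for the array labelled GN+Water and 8.80 for GN+Captopril. By 1422975_at it was at 7.64, 7.71, 8.07 and 7.54. The array labelled GN+Water was the highest by both probe sets. Saline+Water was far the lowest by the first, but lay between the 2 captopril arrays by the second. Relative to Saline+Water, the array labelled GN+Water was thus 5.66-fold higher by 1455961_at and 1.35-fold higher by 1422975_at, a gap of 2.06. Among 4958 genes with more than 1 probe set the median gap in that comparison was 0.67, and 5.04% had one as large as that of Mme. Captopril in saline mice was 3.49-fold higher by the first probe set and 1.05-fold higher by the second. In GN mice captopril was lower by both, 2.06-fold and 1.44-fold, and GN on captopril was lower by both, 1.27-fold and 1.12-fold. Relative to Saline+Captopril, the array labelled GN+Water was 1.62-fold higher by 1455961_at and 1.29-fold higher by 1422975_at.

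Thop1 and Prcp encode the other peptidases that cut angiotensin I or II within or at the end of the chain. Thop1 by 1448907_at was at 7.76 for Saline+Water, 7.08 for Saline+Captopril, 6.94 for the array labelled GN+Water and 6.91 for GN+Captopril, and by 1425402_at at 7.58, 6.70, 6.61 and 6.64. Saline+Water alone was high, by 0.68 and 0.88 over the next array. Among the other 3 arrays the range was 0.17 and 0.09, the latter the smallest of all 14 probe sets. Prcp by 1452191_at was at 9.11, 8.90, 8.46 and 8.83 in the same order, and by 1452190_at at 8.91, 8.77, 8.55 and 8.82. For Prcp the array labelled GN+Water was the low one by both probe sets, 1.57-fold and 1.28-fold below Saline+Water, and captopril in GN mice was 1.29-fold and 1.20-fold higher.

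Enpep and Anpep, the aminopeptidases that act one after the other on angiotensin II, had 1 probe set each and lay on opposite sides. Enpep was at 10.3 for Saline+Water, 11.2 for Saline+Captopril, 11.0 for the array labelled GN+Water and 11.1 for GN+Captopril. Anpep was at 8.97, 8.35, 8.18 and 8.42. Enpep was low on Saline+Water and Anpep high there, by 0.71 and 0.55 relative to the nearest array, and each kept within 0.24 on the other 3. The suffix of the Anpep probe set, 1421424_a_at, and of the second Ace probe set marks probes common to several transcripts of a gene. All 14 probe sets stood above the background limit of their array, set at the 90th percentile of its 27 negative controls, by 2.19 to 7.45.

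**Figure D1:**
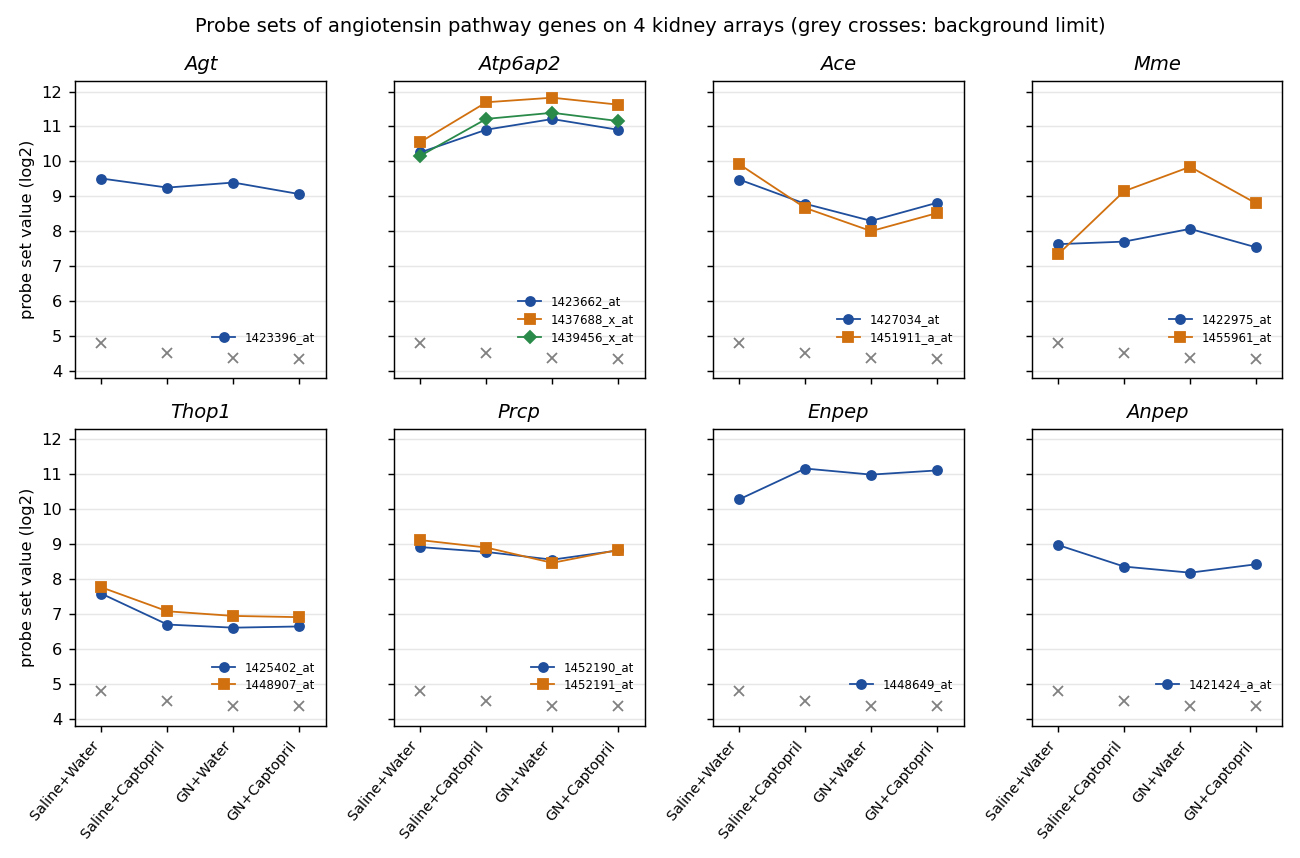
Log2 values (y axis) of every probe set of the 8 measured genes on the 4 arrays (x axis); each colour and marker is 1 probe set, lines only join the values of a probe set, and grey crosses are each array's background limit. Saline+Water is the highest or lowest array for 13 of 14 probe sets. For Mme 1455961_at spans 7.35 to 9.85 over the arrays, whereas 1422975_at spans 7.54 to 8.07.

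From here on each gene is given by its brightest probe set on average, unless another is named, and the counts are of genes whose arrays lay 1.5-fold or more apart. Saline+Water was the highest or the lowest of the 4 arrays for all 8 genes, highest for Agt, Ace, Thop1, Prcp and Anpep and lowest for Atp6ap2, Mme and Enpep. That is also where most genes stood: of 8207 genes past the filter, 80.7% had Saline+Water at one end. Without that array, 1 of the 8 genes, Mme, spanned 1.5-fold or more over the other 3 arrays, against 11.4% of all genes. By the other probe sets Ace spanned 0.66, past 1.5-fold, and Mme 0.53, under it. The median range over those arrays was 0.29 for the 8 genes and 0.20 for all genes.

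GN against saline in mice on water set the array labelled GN+Water against Saline+Water, both of which stood apart. Mme, Atp6ap2 and Enpep were 5.66-fold, 2.41-fold and 1.63-fold higher. Ace, Thop1, Anpep and Prcp were 2.27-fold, 1.76-fold, 1.73-fold and 1.57-fold lower. Agt was 1.08-fold lower. Thus 3 of 8 were at least 1.5-fold higher and 4 lower, against 19.6% and 15.3% of the 8207 genes. The members were chosen with earlier results of these data known, so nothing is read from an excess here or in the comparisons below. The median over the 8 genes was −0.38 and over all genes 0.00. At 2-fold, 3 of 8 remained, Mme, Atp6ap2 and Ace, against 14.8%. For Mme 0.99% of all genes were at least as far apart, for Atp6ap2 8.54% and for Ace 10.2%, but for Prcp 30.7%. Relative to Saline+Captopril in place of Saline+Water, 1 of the 8 genes, Mme, was past 1.5-fold, against 6.31% of all genes higher and 3.03% lower, and by 1422975_at Mme was under it. Ace was then 1.40-fold lower, Prcp 1.35-fold lower, and Enpep 1.13-fold lower in place of higher. With GN+Captopril set against Saline+Water, 3 genes were higher and 2 lower, against 17.2% and 10.2% of all genes. Mme was 2.74-fold higher there.

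Captopril against water in GN kidneys asked what the drug changed in the diseased organ. With captopril Mme was 2.06-fold lower, and it was the 1 gene of 8 past 1.5-fold. By 1422975_at Mme was 1.44-fold lower, under that threshold. Over all genes 3.7% were higher and 4.52% lower. Ace at 1.43-fold higher and Prcp at 1.29-fold higher stayed under the threshold, as did Agt at 1.26-fold lower and Atp6ap2 at 1.15-fold lower. Enpep, Anpep and Thop1 were 1.09-fold higher, 1.18-fold higher and 1.03-fold lower. The median over the 8 genes was 0.04, and that of their absolute differences 0.29, against 0.15 for all genes. The array that sets this comparison apart is the one whose sex-linked RNAs go against its label. On it the 9 androgen-responsive kidney transcripts that were measured had a median level of 7.03, against 12.2 to 12.6 on the others, and 7 of 9 were at least 1.5-fold higher on GN+Captopril. Their part in the Mme and Ace values was not tested.

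Captopril against water in saline kidneys asked what the drug changed without disease. Mme, Atp6ap2 and Enpep were 3.49-fold, 2.20-fold and 1.84-fold higher on Saline+Captopril, and Ace, Thop1 and Anpep 1.62-fold, 1.61-fold and 1.53-fold lower. Agt and Prcp were 1.20-fold and 1.16-fold lower. Among the 8207 genes 15.6% were higher by that factor and 10.2% lower, against 3 and 3 of these 8. At 2-fold, 2 of 8 remained, Mme and Atp6ap2, against 8.52%. By 1422975_at Mme was 1.05-fold higher, under both thresholds. The median over the 8 genes was −0.24 and over all genes 0.01. The GN comparison on water shares the Saline+Water array with this one.

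GN against saline in mice on captopril set 2 arrays against each other that stood apart in neither respect. None of the 8 genes was 1.5-fold apart, against 1.85% of all genes higher and 0.207% lower, so nothing is read from this count. Mme was 1.27-fold lower, Agt 1.14-fold lower and Thop1 1.12-fold lower. Ace was 1.02-fold higher, a direction that turned with quantile normalisation, Anpep 1.05-fold higher, and Enpep, Prcp and Atp6ap2 were 1.04-fold, 1.05-fold and 1.05-fold lower. The median absolute difference of the 8 genes was 0.07 and that of all genes 0.08. Of 10 leukocyte markers measured on these arrays, 7 were at least 1.5-fold higher and 0 lower.

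**Figure D2:**
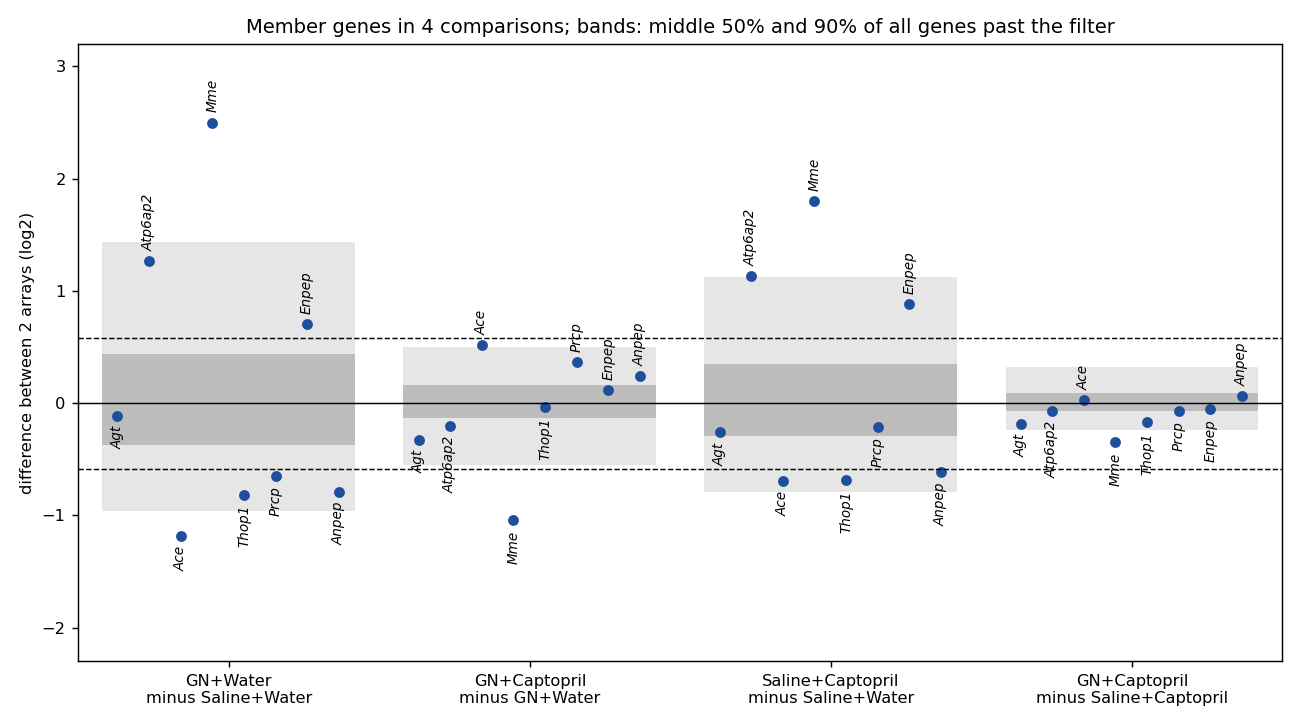
Log2 difference between 2 arrays (y axis) for the 8 genes in each of 4 comparisons (x axis); dark and light grey bands hold the middle 50% and 90% of all 8207 genes, and dashed lines mark 1.5-fold. By its probe set with the higher mean, shown here, Mme lies outside the light band in every comparison, at 2.50, −1.04, 1.80 and −0.35. By its other probe set Mme is at 0.44, −0.53, 0.07 and −0.16 in the same order, inside that band each time. The other genes gather near 0 in the comparison of the captopril arrays.

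The GN difference on captopril was set against that on water, which uses all 4 arrays once. The difference on captopril minus that on water was −2.85 for Mme, −1.34 for Atp6ap2 and −0.76 for Enpep. It was 1.21 for Ace, 0.86 for Anpep and 0.65 for Thop1. Of the 8 genes, 6 were at least 1.5-fold apart in this respect, against 34.9% of all genes. Prcp at 0.58 and Agt at −0.07 were not. These values could not be tested with 1 array per group.

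Of 15 other listed genes that form, cut or bind angiotensins, 11 had a probe set and 6 passed the filter. In any of the 4 comparisons, 0 of the 6 were 1.5-fold apart. Over all genes 19.6% were higher and 15.3% lower for GN on water, and fewer in the other comparisons, so nothing is read from this count. The medians over the 6 were −0.33 for GN on water, 0.16 for captopril in GN mice, −0.19 for captopril in saline mice and 0.05 for GN on captopril. Dpp3, a dipeptidyl peptidase that degrades angiotensin II, was at 8.89 for Saline+Water, 8.47 for Saline+Captopril, 8.32 for the array labelled GN+Water and 8.63 for GN+Captopril. From high to low, that is the order of arrays of Ace by 1427034_at. Agtrap, whose product binds the angiotensin II receptor, was 1.43-fold lower for GN on water. Ctsa, a lysosomal carboxypeptidase that can cut angiotensin I, was 1.30-fold lower. Agtr2 and Mas1, receptor genes, were near background on all 4 arrays. The renin and type 1 receptor genes Ren1 and Agtr1a were not analysed here.

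Bradykinin is inactivated by the converting enzyme, so the kallikrein-kinin genes are the other arm on which captopril acts. Of 10 listed, 8 had a probe set and 5 passed the filter, with 0 of 5 at least 1.5-fold apart in any comparison. Against 19.6% of all genes higher and 15.3% lower for GN on water, nothing is read from this count either. Kng1, the kinin precursor gene, was at 11.2 for Saline+Water, 10.7 for Saline+Captopril, 11.3 for the array labelled GN+Water and 10.7 for GN+Captopril. It was higher on the 2 water arrays than on the 2 captopril arrays, by 0.45 in saline mice and 0.55 in GN mice. Xpnpep1, whose aminopeptidase can cut bradykinin, was highest on the array labelled GN+Water at 11.2 against 10.6 to 10.8. The kallikrein gene Klk1 kept between 13.9 and 14.2.

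Of 20 other subunits listed for the proton pump to which the prorenin receptor belongs, 17 passed the filter. For GN on water 2 of 17 were at least 1.5-fold higher and 4 lower, for captopril in saline mice 2 higher and 3 lower, and 0 in either direction in the remaining 2 comparisons. Over all genes the shares were 19.6% and 15.3% in the first and 15.6% and 10.2% in the second, so nothing is read from these counts. Atp6v1g1, a stalk subunit gene, was lowest for Saline+Water at 10.6 and reached 11.8 to 12.0 elsewhere, the same side as Atp6ap2. Atp6v0a4 and Atp6v0a2, genes of the membrane sector, were on the other side, at 9.92 for Saline+Water against 8.94 to 9.19, and at 9.22 against 8.30 to 8.45. The medians over the 17 were −0.05 and 0.00 in the 2 comparisons that use Saline+Water.

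**Figure D3:**
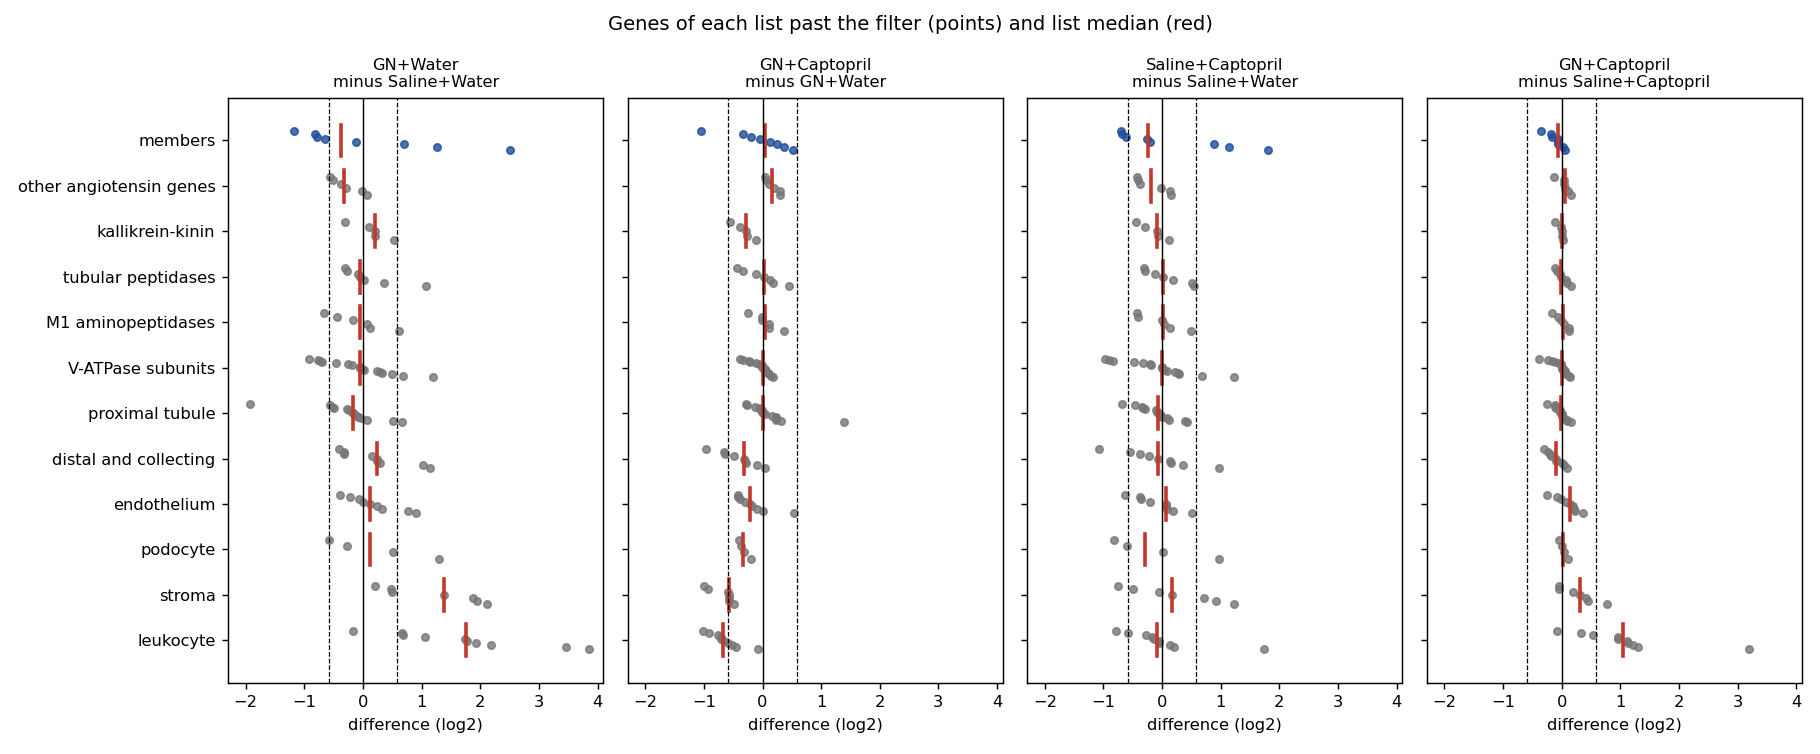
Log2 difference between 2 arrays (x axis, 1 panel per comparison) of every gene past the filter in 12 lists (y axis); points are genes, red bars list medians, and dashed lines 1.5-fold. The 8 member genes (blue) spread to both sides wherever Saline+Water is used. They lie within 1.5-fold between the captopril arrays, as do nearly all genes past the filter. The leukocyte median there is 1.04.

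Markers of cell types that carry these enzymes did not all keep the same level. Proximal tubule markers had medians of −0.18, 0.01, −0.07 and −0.01 in the order GN on water, captopril in GN mice, captopril in saline mice and GN on captopril, with at most 1 of 15 past 1.5-fold in either direction. The exception in the first 3 comparisons was Slc22a6, an organic anion transporter gene, at 10.6 for the array labelled GN+Water against 11.8 to 12.5; Cubn was also 1.5-fold higher or more in the first. Among podocyte markers, which bear on Mme, Ptpro was at 6.47 for Saline+Water against 7.40 to 7.76, and Nphs1 on the other side at 7.90 against 7.08 to 7.33. Leukocyte markers, which bear on Mme, Anpep and Ace, were higher for GN on water in 9 of 10, with a median of 1.76, and lower for captopril in GN mice in 7 of 10, with a median of −0.68. Their summed linear level was 2902 and 2858 on the saline arrays, 12711 for the array labelled GN+Water and 8023 for GN+Captopril. On the last 2 arrays Lyz2 weighs most in that sum, at a log2 value of 12.7 and 12.0, against 8.86 for Saline+Water and 8.81 for Saline+Captopril. Stromal markers were higher in 4 of 7 and lower in 3 of 7 in the same comparisons, and endothelial markers, which bear on Ace, had medians of 0.12 and −0.21. Fat cell markers, which bear on Agt, were higher in 3 of 4 and in 2 of 4, with medians of 0.77 and 0.37. For GN on captopril 2 of these 4 were higher, against 1.85% of all genes. For captopril in saline mice it was 1 of 4, against 15.6%. Over all genes 19.6% were higher for GN on water, and 3.7% were higher and 4.52% lower for captopril in GN mice. On the array labelled GN+Water leukocyte and stromal markers had their highest medians, Mme was highest by both probe sets, and Anpep and Ace were lowest. What part these cells have in the values of the 8 genes was not tested.

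The genes nearest to Ace in their course over the 4 arrays were Mast2, Faah, Myh14, Plekha7 and Acad10, at Euclidean distances of 0.02 to 0.06 between log2 values centred on each gene's mean. Mast2 was at 9.87, 9.20, 8.71 and 9.23 in the order Saline+Water, Saline+Captopril, the array labelled GN+Water and GN+Captopril. Nearest to Mme by 1455961_at were Kdm6a, Cldn1, Vav3, Slit2 and Tmem123, at 0.19 to 0.31. Within 0.5, a wider distance than these, lay 14.3% of 8206 genes for Ace and 0.39% for Mme. With 4 arrays a like shape is common: a correlation of at least 0.95 was shared by 11.1% with Ace and by 10.6% with Mme.

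**Figure D4:**
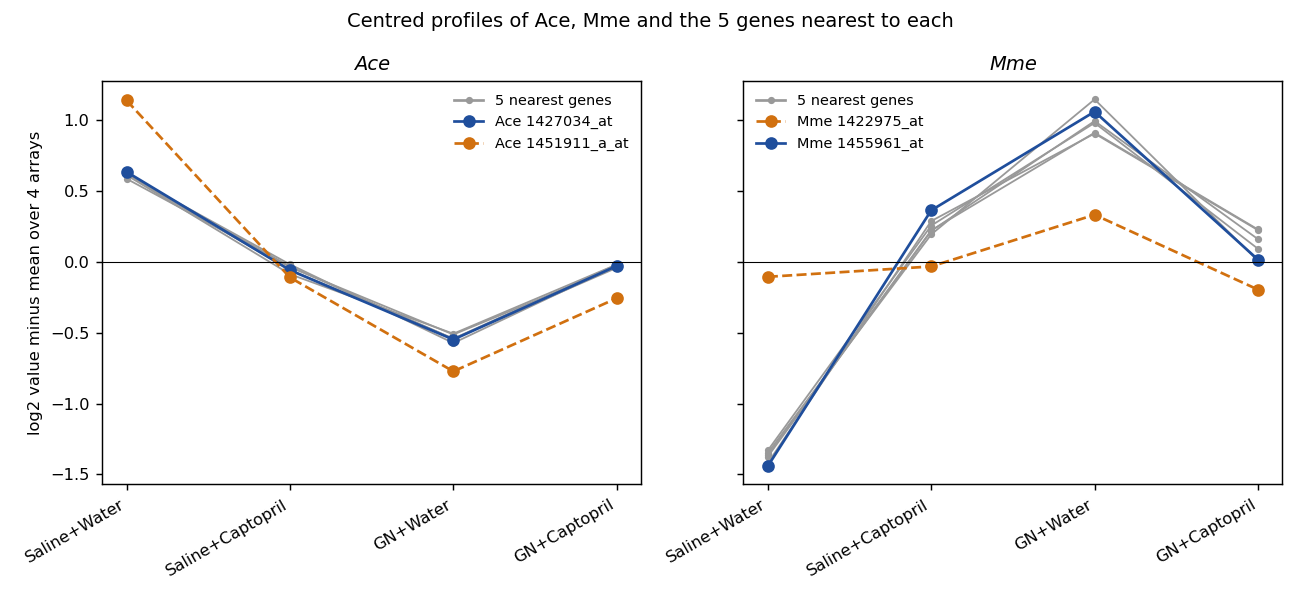
Log2 values minus the mean over the 4 arrays (y axis) for Ace (left) and Mme (right) on each array (x axis), with the probe set used in solid blue, the other in dashed orange and the 5 nearest genes in grey. The 5 genes near Ace run within 0.06 of it, while on Saline+Water the second Mme probe set stays near its mean and the first, with its neighbours, is far below.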

How the data were processed

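Affymetrix arrays were hybridised with material made from 6 µg of whole-kidney RNA, according to the labels. What the authors deposited is on the log2 scale, with 1 value per array for 22690 probe sets. GCOS and RMA are named by the submitters' processing notes, with no role or version, and the genome build is not given in the sources used here.

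Of the probe sets, 20393 had 1 gene symbol in the platform annotation, 691 several and 1606 none. Symbols were updated through the Entrez ID for 20364. Where a gene had several probe sets, the brightest on average stood for it. The expression filter was the 40th percentile of probe set means, 6.27, and 8207 of 12394 genes passed.

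Each comparison is a log2 difference between 2 arrays, with no test because there was 1 array per group. The threshold was 1.5-fold. Precision is limited by the number of arrays. The calculation was tested on simulated arrays. Python 3.11.15, pandas 2.3.3, R 4.3.3 and limma 3.58.1 (quantile and cyclic loess alternatives) were used. Alternatives were other scalings, filters, probe set rules, a 2-fold threshold and other arrays as baseline. The genes named come from the 9 members, up to 3 genes of each list with the largest difference, the 5 nearest to Ace and to Mme, and listed sex-linked transcripts. Klk1, Agtr2 and Mas1 were named after their values were seen. The members and lists were chosen with earlier results of these data known.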

Additional observations from a re-analysis of the deposited data

Results flagged for a closer look

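For 6 genes the difference between GN and saline arrays had opposite signs on water and on captopril, or the difference between captopril and water arrays had opposite signs in saline and in GN mice. The size of that difference is the same in both views. It was 1.21 for Ace, −2.85 for Mme, −0.76 for Enpep, 0.86 for Anpep, −1.34 for Atp6ap2 and 0.58 for Prcp (log2, the GN difference on captopril minus that on water). The difference was not tested, because each group had 1 array. All 6 values use Saline+Water and the array labelled GN+Water. On captopril the GN difference was near 0 for most: 0.03 for Ace, −0.05 for Enpep, 0.07 for Anpep, −0.07 for Atp6ap2, −0.07 for Prcp and −0.35 for Mme. The values thus largely restate the GN difference on water. How many of all genes had such opposite signs was not counted, but 34.9% were at least 1.5-fold apart in this respect. For Mme the value by its other probe set, 1422975_at, was −0.60, and for Ace by 1451911_a_at it was 1.76.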

How the results depend on the processing

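Of 288 values recomputed under 12 alternatives, 272 stayed within 1.5-fold of the reported value, or within 1.5 times for a count, and 15 moved further. Not all of them could move. Agt, Enpep and Anpep had 1 probe set each, so the probe set rules returned the same value. Leaving out probe sets marked as shared changed the probe set of Atp6ap2 alone. Of values past 1.5-fold, 1 changed sign, that of Enpep below. So did 6 small ones, of at most 0.12 in size: Agt for GN on water (0.14 with the Saline+Captopril baseline), Thop1 for captopril in GN mice (0.035 with the lowest-mean probe set), and for GN on captopril Prcp (0.043 with that probe set) and Ace (−0.01 with quantile normalisation, −0.06 with the mean of all probe sets, −0.15 with the lowest-mean one). Median centring, quantile normalisation, cyclic loess, leaving out probe sets marked as shared and other expression filters moved no value by more than 1.5-fold. With the mean of all probe sets, Mme was 1.47 for GN on water and 0.94 for captopril in saline mice. With the probe set of the lowest mean, a choice made after seeing the data, Mme was 0.44 and 0.073 in these comparisons, Ace was −1.91 for GN on water, and 0 of the 8 genes were 1.5-fold apart for captopril in GN mice in place of 1. At 2-fold, 3 genes passed for GN on water in place of 7, and 2 for captopril in saline mice in place of 6. Taking Saline+Captopril as the baseline for GN on water, Ace was −0.49, Mme 0.70 and Enpep −0.17, the last reversed, and 1 gene passed in place of 7; Anpep, Atp6ap2 and Thop1 also moved. Taking GN+Captopril as the GN array, Mme was 1.46. The cause of these shifts was not tested. No paired analysis was possible because each group had 1 array. Every probe set of the 8 genes was above background on all 4 arrays.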

Other observations

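Of 9 other tubular cell-surface genes listed, all for peptidases but Cltrn, 7 passed the filter. Of these, 1 was at least 1.5-fold higher for GN on water, against 19.6% of all genes. It was Folh1, a zinc carboxypeptidase gene, at 8.09 for Saline+Water, 8.64 for Saline+Captopril, 9.17 for the array labelled GN+Water and 8.74 for GN+Captopril, the order of arrays seen for Mme except that the 2 captopril arrays were reversed. Mep1a, a meprin subunit gene, was lowest on the array labelled GN+Water at 12.7, against 13.0 to 13.2. Cltrn, an amino acid transporter chaperone gene, was lowest on Saline+Water at 12.6, against 12.9 to 13.1.

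Among 6 measured aminopeptidase genes of the family of Enpep and Anpep, Erap1, which trims peptides for antigen presentation, was 1.54-fold higher for GN on water and Rnpepl1 1.58-fold lower, 1 of 6 in each direction against 19.6% and 15.3% of all genes. In the family of neprilysin, 2 of 6 genes passed the filter. Ece1, which activates endothelin, was highest for Saline+Water at 9.06, against 8.58 to 8.88. In the comparison of the captopril arrays 0 genes of these 3 lists were 1.5-fold apart, against 1.85% of all genes higher and 0.207% lower. Nothing is read from that count.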
